A study of Ovis aries with 6 samples.

Results

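The miR-15/16 family is a group of small RNAs known as brakes on the cell cycle. Its members in the fetal sheep rumen were taken by name from the first column of the 6 deposited tables: any sheep miRNA called miR-15, miR-16, miR-195 or miR-497, and the newly predicted novel_miR_96. The rule found 2 of the 1253 listed miRNAs, oar-miR-16b and novel_miR_96. The small RNA libraries came from rumens of Hu sheep fetuses, 3 from normally fed ewes (CON) and 3 from ewes on restricted feed (UN, called TR in the sample labels), in 1 library per fetus. All 6 are labelled wild type, and the labels place the ewes at day 115 of gestation; by the study's methods restriction started on that day, the fetuses were male, the ewes carried several fetuses each, and the rumen was taken when the restriction ended. The question was whether maternal undernutrition changes the miRNAs of the fetal rumen, the largest forestomach. The values are RPM, reads scaled so that each library sums to 1000000 over the listed miRNAs, and the libraries held 18584326 to 35555822 such reads, so that 1 read was worth 0.0281 to 0.0538 RPM. The rumen label was set against miRNAs typical of its layers: oar-miR-143, of smooth muscle, made up 29.5% to 50.0% of each library, and the epithelial list of 7 entries summed to 47611 to 76863 RPM. No other gut tissue was compared, so these values cannot tell rumen from intestine, which the series title names. Whole tissue was sequenced, so fewer cells of a type and less of a miRNA per cell cannot be told apart.

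A miRNA guides the silencing complex to mRNAs that pair with its seed, the bases at positions 2 to 8 from the 5′ end. In human and mouse cells miRNAs with the miR-15/16 seed repress cyclins D1 and E1, the kinases CDK6 and WEE1, and the survival factor BCL2, and they hold cells before S phase. They are made in pairs from clustered hairpins, and their level often rises as cells leave the cycle. Targets were not measured in these libraries.

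The sequences are shown because membership rests on the seed. A search of the study's sequence list for the seed of oar-miR-16b at bases 2 to 8 found 6 of 1253 entries, the 2 members and 4 newly predicted relatives. The seed is in capitals, and the entries are ordered by level.
oar-miR-16b: uAGCAGCAcguaaauauugg
novel_miR_418: uAGCAGCAcguaaauauuggagu
novel_miR_442: cAGCAGCAauucauguuuuga
novel_miR_926: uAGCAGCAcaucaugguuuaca
novel_miR_96: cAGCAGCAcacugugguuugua
novel_miR_46: uAGCAGCAcauaaugguuugu
None of the 6 shares its whole sequence with another entry. The 20 bases of oar-miR-16b are the first 20 of novel_miR_418, so these entries are a shorter and a longer form of 1 sequence and reads may have been split or counted in both. Over those 20 positions novel_miR_46 has 15 bases in common with oar-miR-16b, novel_miR_926 has 13, novel_miR_442 has 12 and novel_miR_96 has 11. From general knowledge, and not compared with miRBase, the sequences of novel_miR_96, novel_miR_46, novel_miR_926 and novel_miR_442 are, but for at most an end base, those known in human as miR-497, miR-15a, miR-15b and miR-424. An entry for the guide strand of miR-195 was not among the 6 and is not analysed here.

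Other entries come close to the seed or to its hairpins. In novel_miR_915, whose sequence is close to that of human miR-503, the seed carries the change A8G, counted from the 5′ end of oar-miR-16b. In oar-miR-103, oar-miR-107 and novel_miR_348 the same 7 letters stand 1 base earlier, so that bases 2 to 8 read GCAGCAU. novel_miR_900, which has the sequence of the opposite strand of human miR-195, holds the complement of the seed, UGCUGCU, as do 3 of all 1253 entries (0.239%).
novel_miR_915: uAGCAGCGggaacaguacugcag
oar-miR-103: AGCAGCAuuguacagggcuaug
novel_miR_900: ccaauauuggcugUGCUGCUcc
Capitals mark the seed of novel_miR_915, the shifted letters in oar-miR-103 and the complement of the seed in novel_miR_900. In the RefSeq annotation of the assembly ARS-UI_Ramb_v3.0, 1 of the 2 members was matched: MIR16B lies within the bounds of SMC4, a condensin subunit that compacts chromosomes for division, between TRIM59 and IFT80. Its strand was not compared. Mammals carry a second miR-16 hairpin with the same mature sequence, and reads of the 2 cannot be told apart.

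oar-miR-16b carried most of the family. It took 76.9% to 80.0% of the summed RPM of the 6 seed entries and ranked 36th or 37th of 1253 in every library. novel_miR_418 ranked 80th to 91st with 12.1% to 13.5% of the sum, and novel_miR_442 ranked 102nd to 124th with 4.89% to 8.47%. novel_miR_926 had 1.30% to 1.70% of the sum. novel_miR_96 ranked 233rd to 273rd, with 0.187% to 0.368%, and novel_miR_46 ranked 246th to 273rd, with 0.187% to 0.295%. The 4 most abundant entries kept their order in each library, with no overlap between the ranges of neighbours. novel_miR_96 and novel_miR_46 did not differ beyond their spread, with means over 6 libraries of 9.57 and 8.72 RPM. As deposited, the family as a whole came to 3675 ± 189 RPM for CON fetuses and 3206 ± 128 RPM for UN fetuses (mean ± SD, n = 3 each), or 0.368% and 0.321% of the reads. This sum was not tested and not compared after the TMM scaling described below. With that scaling the groups overlapped for each of the 6 entries, also for oar-miR-16b, which made up most of the sum.

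**Figure D1:**
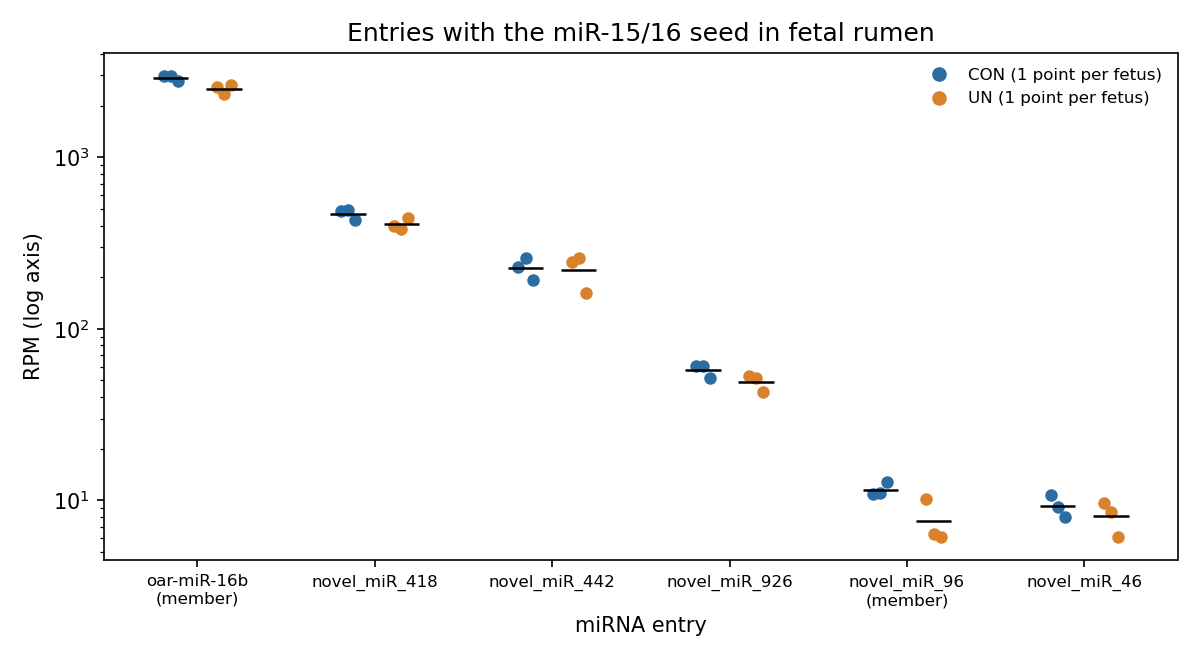
RPM on a log axis of the 6 entries with the miR-15/16 seed, 1 point per fetus and a bar at each group mean (n = 3). oar-miR-16b lies between 2352 and 2974 RPM in all libraries, and novel_miR_96 and novel_miR_46 lie near 10.

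The miR-16 guide, oar-miR-16b, had 2963, 2974 and 2766 RPM in CON replicates 1, 2 and 3, and 2561, 2352 and 2626 RPM in UN replicates 1, 2 and 3. All 3 UN values were under all 3 CON values, with CON replicate 3 and UN replicate 3 the closest. With 47979 to 98352 reads per library, counting error was small: the exact 95% Poisson interval was 2749 to 2783 RPM in CON replicate 3 and 2607 to 2646 RPM in UN replicate 3. The Poisson intervals, here and below, cover counting error only, while those of fold changes and ratios rest on the spread between fetuses. The group means were 2901 ± 117.1 RPM in CON (SD, n = 3) and 2513 ± 143.4 RPM in UN (SD, n = 3), so that the UN mean was 86.6% of the CON mean. The log2 fold change of oar-miR-16b was -0.21 (standard error 0.18, 95% interval -0.60 to 0.18), and it did not pass the test (p = 0.27 and adjusted p = 0.85 from limma, two-sided exact permutation p = 0.1). The smallest exact p that 3 fetuses against 3 can reach is 0.1.

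oar-miR-16b was one of the steadiest miRNAs within a group. Its within-group SD of log2(RPM + 1) was 0.072, the 5th smallest of 567, where the median was 0.261. The limma error of 0.18 is larger than the 0.059 that this SD alone would give, because limma draws the error of each miRNA toward that of others at its level. The libraries differed in the share taken by oar-miR-143, least in CON replicate 2 (29.5%) and most in CON replicate 3 (50.0%), and a larger share leaves less of the fixed total to the other miRNAs. After TMM scaling, which sets libraries on a common level of most miRNAs, oar-miR-16b stood at 2911, 2327 and 3024 RPM in CON and 2623, 2555 and 2810 RPM in UN. CON replicate 2 then had the lowest value of all 6, and the groups overlapped. This left a log2 fold change of -0.04 (standard error 0.14, adjusted p = 0.96 from limma), and the within-group SD was 0.153, the 157th smallest of 567.

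novel_miR_96, with the sequence of human miR-497, had 10.9, 11.03 and 12.7 RPM in CON replicates 1, 2 and 3, and 10.2, 6.396 and 6.13 RPM in UN replicates 1, 2 and 3. UN replicates 2 and 3 stood apart, while UN replicate 1 was just under the CON libraries, and the groups did not overlap. It was read 131 to 453 times per library, and the exact 95% Poisson intervals of CON replicate 1 (9.63 to 12.3 RPM) and UN replicate 1 (8.80 to 11.75 RPM) overlapped, so these libraries differed by less than counting error. The intervals of UN replicate 2 (5.35 to 7.59 RPM) and UN replicate 3 (5.24 to 7.14 RPM) lay below that of each CON library. The means were 11.6 ± 1.03 RPM in CON (SD, n = 3) and 7.58 ± 2.27 RPM in UN (SD, n = 3), so that the UN mean was 65.6% of the CON mean. The log2 fold change of novel_miR_96 was -0.58 (standard error 0.26, 95% interval -1.14 to -0.01), with p = 0.046 and adjusted p = 0.84 from limma and an exact permutation p = 0.1, which did not pass. After TMM scaling its values were 10.7, 8.63 and 13.9 RPM in CON and 10.4, 6.95 and 6.56 RPM in UN, with UN replicate 1 above CON replicate 2. This gave a log2 fold change of -0.43 (standard error 0.24, adjusted p = 0.85 from limma).

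**Figure D2:**
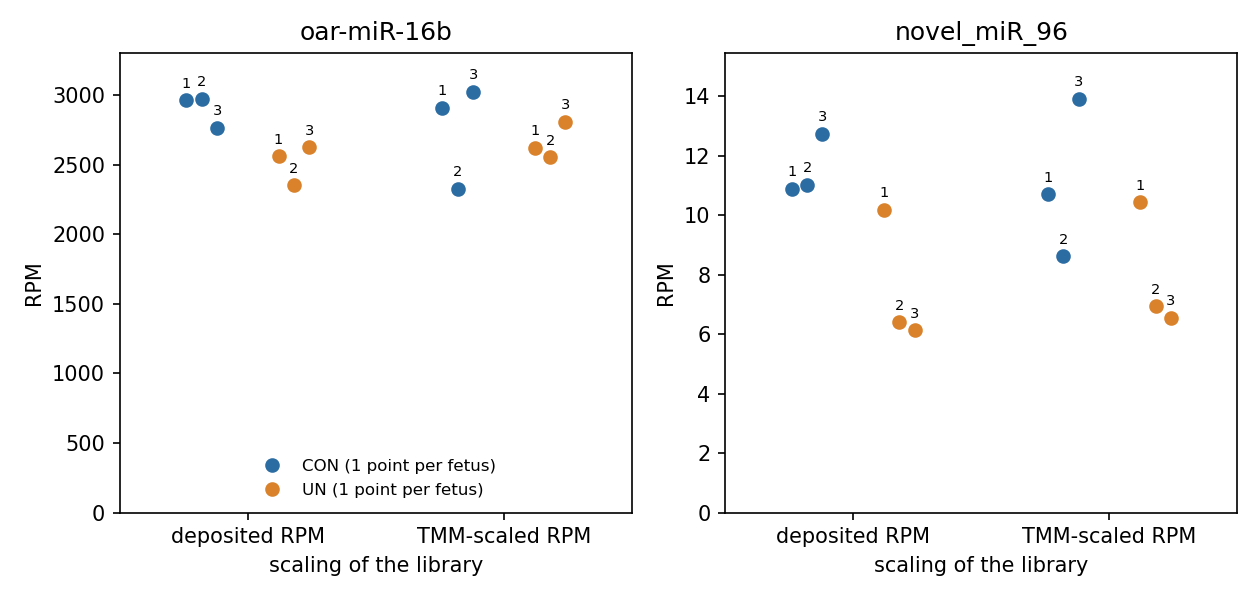
RPM of oar-miR-16b (left) and novel_miR_96 (right) in each library, as deposited and after TMM scaling, 1 point per fetus with its replicate number; both axes start at 0. As deposited, all UN points lie under all CON points; after TMM scaling CON replicate 2 is the lowest oar-miR-16b value at 2327 RPM, and the groups overlap for both members.

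The background sets these values in context. Of the 567 miRNAs with enough reads to test, limma called 0 (0%) at an adjusted p under 0.05, where edgeR called 1 and DESeq2, on all 1253, called 2; none was an entry of the family. At an unadjusted p under 0.05, limma had 29, of which 25 were lower in UN (4.41% of 567), and novel_miR_96 was the 1 such entry of the 6 with the seed. The UN values were all under the CON values for 70 miRNAs (12.3%), among them both members and none of the 4 relatives. With TMM-scaled RPM this held for 23 miRNAs (4.06%) and for 0 of the 6. A log2 fold change below 0 was found for 417 miRNAs (73.5%) and for all 6 seed entries as deposited, and for 275 miRNAs (48.5%) and 5 of the 6 after TMM scaling. The median over the 567 was -0.12 as deposited and 0.01 after TMM scaling. The change of oar-miR-16b was thus close to the middle, with 198 of the 567 lower as deposited (34.9%) and 233 after scaling (41.1%). novel_miR_96 had 10 miRNAs below it as deposited (1.76%) and 15 after scaling (2.65%).

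**Figure D3:**
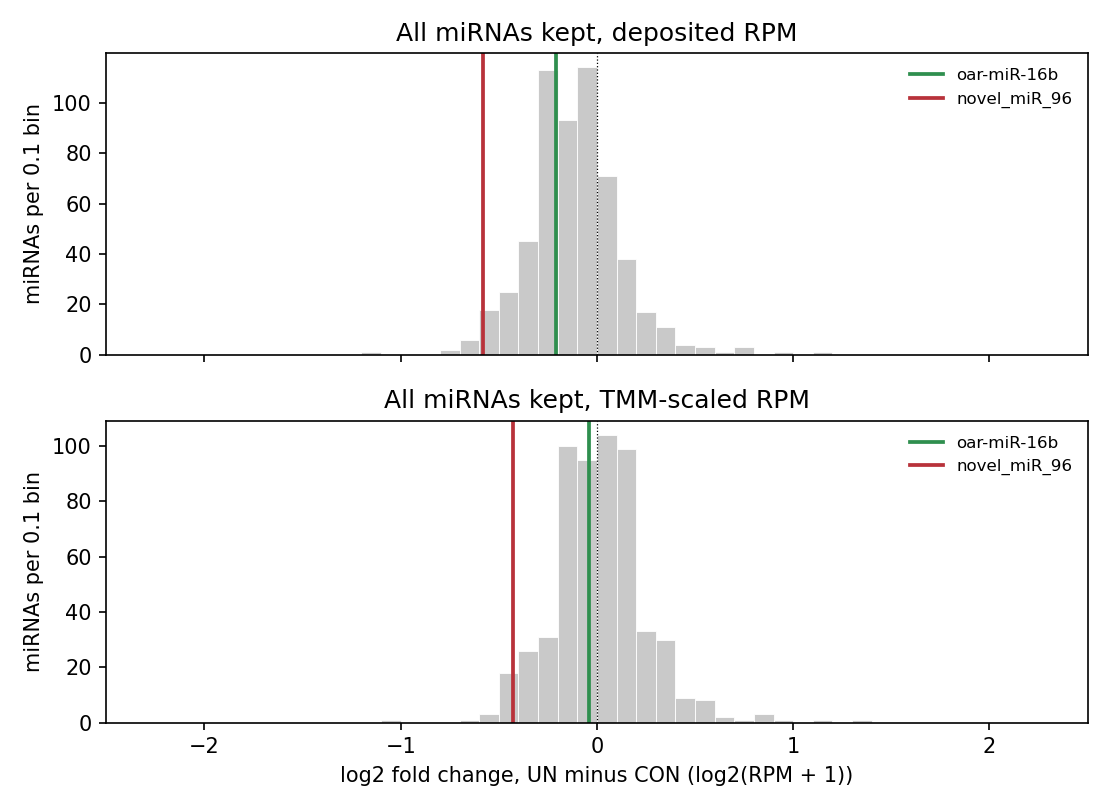
Number of miRNAs per 0.1 bin of the log2 fold change, UN minus CON on log2(RPM + 1), for the 567 tested, as deposited (top) and after TMM scaling (bottom), with a line at each member. oar-miR-16b lies at -0.21 and -0.04, within the bulk, and novel_miR_96 at -0.58 and -0.43, in the lower tail.

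The 4 relatives with the same seed had log2 fold changes between -0.23 and -0.05, and none passed the test (adjusted p of 0.85 to 1.0 from limma). novel_miR_418, the longer form of the miR-16 sequence, had 486, 492 and 429 RPM in CON and 396, 380 and 442 RPM in UN. UN replicate 3 was above CON replicate 3, so the groups overlapped, and its UN mean was 86.6% of the CON mean, as for oar-miR-16b. novel_miR_926, with the miR-15b sequence, had 60.7, 60.8 and 52.0 RPM in CON and 52.9, 52.0 and 42.8 RPM in UN, and CON replicate 3 lay within the UN range. novel_miR_46, with the miR-15a sequence, had 10.8, 9.09 and 8.04 RPM in CON and 9.66, 8.59 and 6.13 RPM in UN, with wide overlap. novel_miR_442, with the sequence of miR-424, a miRNA of muscle and vessel cells, had 230, 258 and 191 RPM in CON and 245, 259 and 161 RPM in UN. Its log2 fold change was -0.05 as deposited and 0.11 with TMM-scaled RPM, so its sign depended on the scaling.

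Of the 4 entries with a near or shifted seed, none passed the test, and all 4 had a log2 fold change below 0, as deposited and after TMM scaling (median -0.26 and -0.11). Over all 567 tested miRNAs, 73.5% lay below 0 as deposited and 48.5% after TMM scaling. novel_miR_915 had 30.9, 32.0 and 28.8 RPM in CON and 24.3, 25.5 and 22.6 RPM in UN, and no UN value reached the lowest CON value. It was the 1 of these 4 for which this held, against 12.3% of the 567. Its change of -0.33 on the log2 scale (standard error 0.24) had an adjusted p = 0.85 from limma, and the groups overlapped after TMM scaling. oar-miR-103, known for its part in insulin signalling in mouse, had 1795, 1342 and 1571 RPM in CON and 957, 1051 and 1444 RPM in UN, and UN replicate 3 lay above CON replicate 2. Its change of -0.46 on the log2 scale (standard error 0.22) had p = 0.056 and adjusted p = 0.84 from limma and an exact permutation p = 0.2. oar-miR-107, which differs from oar-miR-103 at its last base, had 115, 116 and 95.3 RPM in CON and 93.5, 93.6 and 96.6 RPM in UN, with UN replicate 3 above CON replicate 3. novel_miR_348, a longer form of the oar-miR-103 sequence, had 1.71 to 3.34 RPM over the 6 libraries, and reads of these forms may have been split or counted in both. After TMM scaling the log2 fold change was -0.17 for novel_miR_915 (standard error 0.18) and -0.29 for oar-miR-103 (standard error 0.23). It was -0.03 for oar-miR-107 (standard error 0.15) and -0.06 for novel_miR_348 (standard error 0.21), both close to 0. novel_miR_900 had 11.5, 14.5 and 17.2 RPM in CON and 15.002, 9.03 and 11.01 RPM in UN, with overlap and a log2 fold change of -0.29 (standard error 0.27, adjusted p = 0.85 from limma).

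Ratios between entries within a library do not depend on its total, so oar-miR-143 and the scaling leave them as they are. 5 ratios were compared between the groups with exact two-sided permutation tests, whose smallest p is 0.1, adjusted over the 5. The level of novel_miR_96 was 0.368%, 0.371% and 0.461% of that of oar-miR-16b in CON and 0.398%, 0.272% and 0.234% in UN. UN replicate 1 lay inside the CON range and the other UN libraries below it. The log2 ratio of novel_miR_96 to oar-miR-16b had a difference of -0.44 (UN minus CON, 95% interval -1.14 to 0.26 assuming normal errors, exact permutation p = 0.3, adjusted p = 0.50). No difference between the members in their change was thus shown, and neither member passed the test by itself.

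The longer novel_miR_418 stood at 16.4%, 16.5% and 15.5% of oar-miR-16b in CON and at 15.5%, 16.2% and 16.8% in UN. Both groups covered nearly the same range, and the difference in log2 ratio was 0.00 (95% interval -0.13 to 0.13, exact permutation p = 1). novel_miR_46 stood at 14.96% to 17.8% of novel_miR_926 in CON and at 14.3% to 18.3% in UN, again one range (difference 0.02, 95% interval -0.33 to 0.38, exact permutation p = 0.9). novel_miR_442 was 7.46, 8.07 and 6.65 times as high as novel_miR_915 in CON and 10.1, 10.2 and 7.10 times in UN. In human miR-424 and miR-503 come from a single cluster. UN replicate 3 lay inside the CON range, and the difference of 0.29 was not past the spread (95% interval -0.24 to 0.81, exact permutation p = 0.3, adjusted p = 0.50). novel_miR_900 was 1.06, 1.32 and 1.35 times as high as novel_miR_96 in CON and 1.47, 1.41 and 1.795 times in UN; in human these strands come from neighbouring hairpins. The UN ratios were all above the CON ratios, with a difference of 0.33 (95% interval -0.10 to 0.76, exact permutation p = 0.1, adjusted p = 0.50). The closest were UN replicate 2 (1.41, from 185 and 131 reads) and CON replicate 3 (1.35, from 613 and 453 reads). Counting error of the ratios was not computed.

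**Figure D4:**
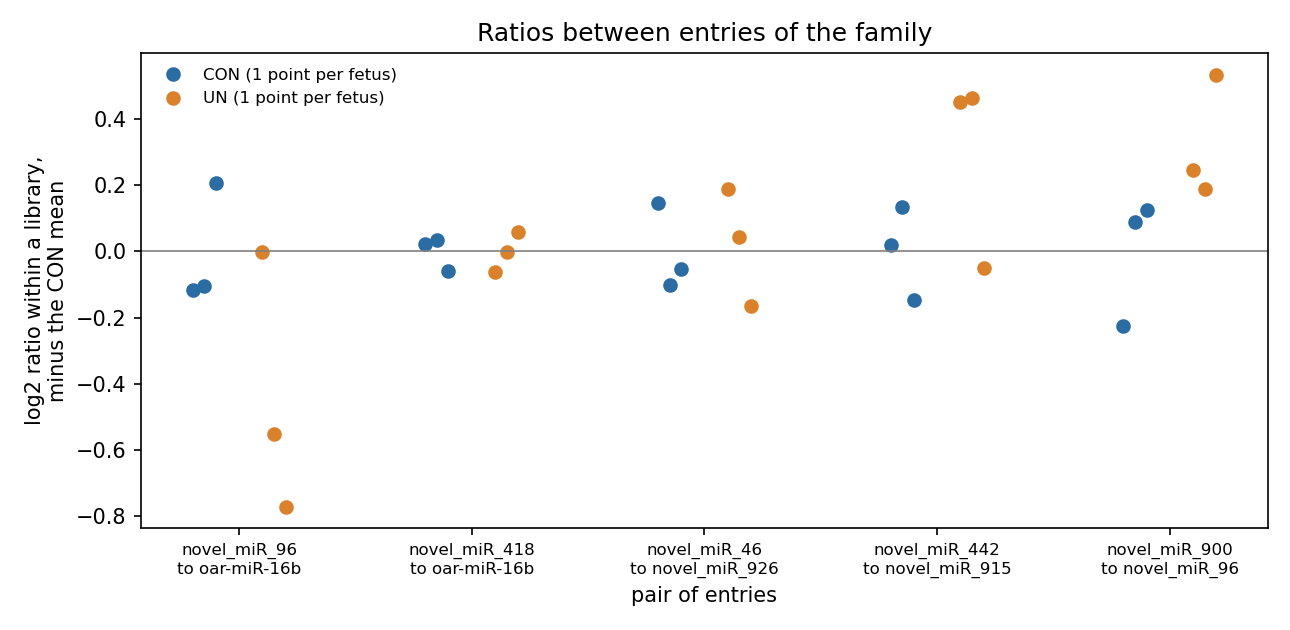
Log2 ratio of 5 pairs of entries in each library, less the CON mean of that pair, 1 point per fetus. The ratio of novel_miR_418 to oar-miR-16b hardly moves, at 15.5% to 16.8% in all 6 libraries. Only the ratio of novel_miR_900 to novel_miR_96 has every UN point above every CON point, and it did not pass (exact permutation p = 0.1, adjusted p = 0.50 over the 5 ratios).

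Across the 6 libraries the entries of the family did not all move together. With oar-miR-16b, Pearson's r of log2(RPM + 1) was 0.947 for novel_miR_418, 0.695 for novel_miR_96, 0.583 for novel_miR_926, 0.324 for novel_miR_46 and -0.034 for novel_miR_442. These values describe 6 libraries of 2 groups that share depth and composition, and no p is given. Over the 566 other tested miRNAs, those most like oar-miR-16b were oar-miR-134-5p (0.977), oar-miR-106a (0.967), novel_miR_11 (0.955), oar-miR-200b (0.951) and novel_miR_418. Those least like it were oar-miR-541-3p (-0.984), novel_miR_76 (-0.858) and novel_miR_156 (-0.808). The miRNAs most like novel_miR_96 were novel_miR_689 (0.975), novel_miR_33 (0.948), novel_miR_850 (0.930), novel_miR_984 (0.913) and novel_miR_110 (0.907), and the least like were novel_miR_240 (-0.809), novel_miR_76 (-0.806) and novel_miR_156 (-0.785). Of all those named, novel_miR_11, oar-miR-541-3p, novel_miR_156, novel_miR_689, novel_miR_850, novel_miR_110 and novel_miR_240 were low, with means over 6 libraries of 0.527 to 1.35 RPM. The means of the others were 6.93 RPM or more. novel_miR_900 had r = 0.835 with novel_miR_96, more than any entry with the family seed.

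Of these, oar-miR-200b, alike to oar-miR-16b, and novel_miR_33, alike to novel_miR_96 and with the sequence of miR-203, are epithelial miRNAs. No other entry of the epithelial list was among the 5 miRNAs most like either member. Within that list novel_miR_884, with the miR-141 sequence, was higher in UN (log2 fold change 0.22), and novel_miR_360, with that of miR-205, was at -0.08. The epithelial list summed, as deposited, to 66818 to 76863 RPM in CON and 47611 to 66547 RPM in UN. Its groups thus did not overlap, by a narrow margin, and the sum was not compared after TMM scaling. Every UN value was under every CON value for 3 of its 7 entries (1 after TMM scaling), against 12.3% (4.06%) of all 567 tested miRNAs. Those 3 were novel_miR_33, oar-miR-200b and novel_miR_962, and novel_miR_962 has a longer form of the miR-200b sequence. Its reads and those of oar-miR-200b may have been split or counted in both, also in the sum, so these entries are not separate. A log2 fold change below 0 was found for 6 of the 7 (4 after TMM scaling), against 73.5% (48.5%) of the 567. miR-16 is also known as abundant in blood cells. The 4 blood cell entries, with sequences of miR-486, miR-150, miR-142 and miR-155, summed to 263 to 395 RPM in CON and 234 to 348 RPM in UN and overlapped, and none passed the test. The liver sequence of miR-122 (novel_miR_519) ran from 6.63 RPM in CON replicate 1 to 148 RPM in CON replicate 2. Of the muscle lists, the striated one summed to 4414 to 7924 RPM in CON and 3938 to 7344 RPM in UN. That sum holds novel_miR_696 and novel_miR_654, both with the miR-1 sequence. These had nearly the same reads in each library (94603 and 94602 in CON replicate 1), so the same reads may be counted in both. The part of these cell types in the levels of the members was not tested.

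Other miRNAs of the cell cycle were set beside the family. Brakes with the seed of miR-34, known as a target of p53 in human, and miR-449 were lower in level: novel_miR_574, with the miR-34a sequence, had 37.0, 57.6 and 36.8 RPM in CON and 40.0, 35.8 and 23.2 RPM in UN. novel_miR_164, with the miR-34c sequence, had 2.62 to 8.17 RPM, and novel_miR_420, with that of miR-449a, had 0.195 to 0.592 RPM. Of the 3 such entries none passed the test, and their median log2 fold change was -0.40 (-0.24 with TMM-scaled RPM). The 6 entries with the miR-17 seed, whose members are known to drive proliferation, summed to 1011 to 1145 RPM in CON and 795 to 897 RPM in UN. The summed RPM of the miR-15/16 seed entries was higher than this in every library. That compares reads of the listed entries, and the activity of either family was not measured. novel_miR_331, with the sequence of miR-20a, had 398, 417 and 421 RPM in CON and 278, 282 and 329 RPM in UN, without overlap. That gave a log2 fold change of -0.48 (standard error 0.21, adjusted p = 0.84 from limma). After TMM scaling its groups overlapped, at a log2 fold change of -0.31. As deposited, every UN value was under every CON value for 3 of the 6 entries with the miR-17 seed, against 12.3% of all 567. With TMM-scaled RPM this held for 0 of the 6, against 4.06% of the 567. None of these 6 passed the adjusted test either, and their median was -0.31 (-0.15 with TMM-scaled RPM), against -0.21 (-0.04) for the 6 seed entries of the miR-15/16 family and -0.12 (0.01) for all tested miRNAs.

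**Figure D5:**
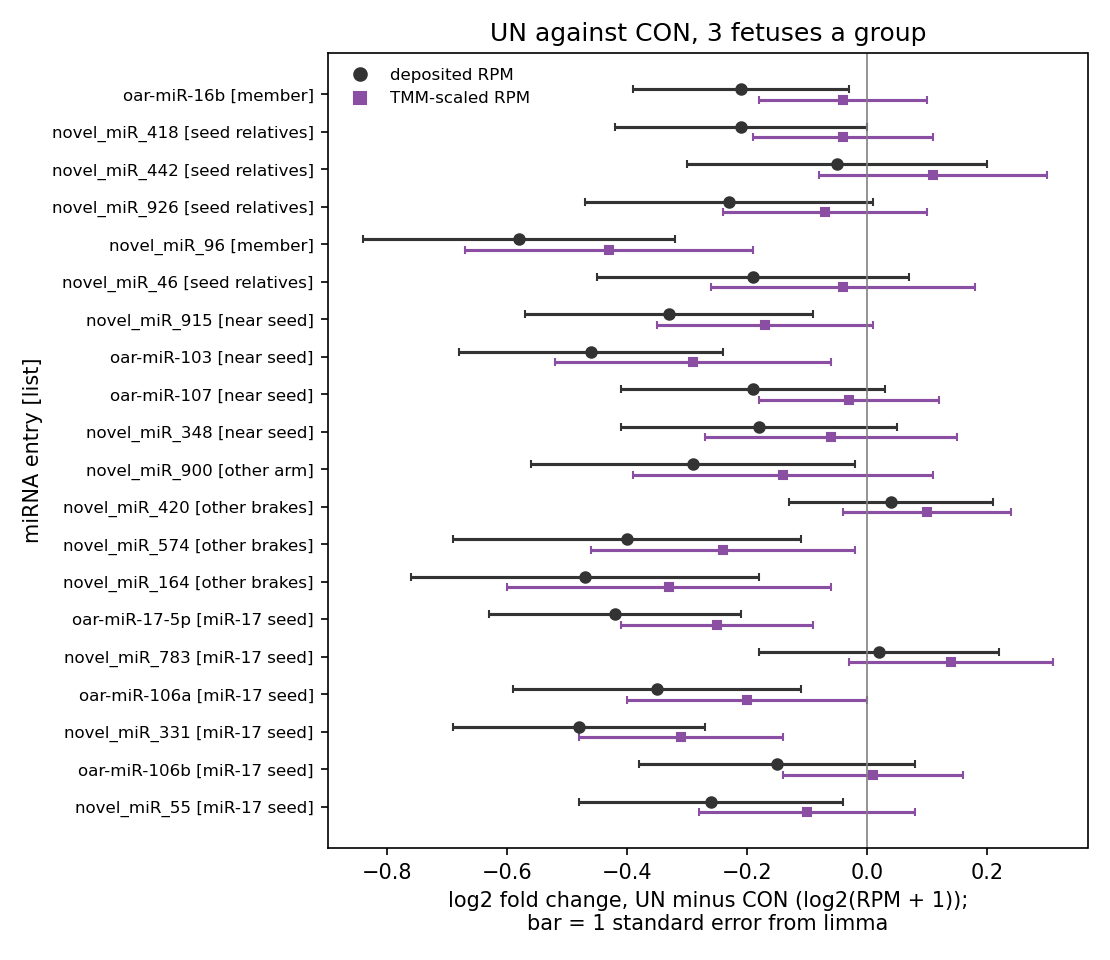
Log2 fold change (UN minus CON on log2(RPM + 1)) with 1 standard error from limma for the seed family, its near relatives, 3 other brakes and 6 entries with the miR-17 seed, as deposited (circles) and after TMM scaling (squares), 3 fetuses a group. TMM scaling moves each point to the right; novel_miR_96 has the lowest value under both, -0.58 and -0.43.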

How the data were processed

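Small RNA of the rumen was compared between 3 CON and 3 UN fetuses; the labels do not say whether any shared a ewe. The authors size-selected small RNAs, sequenced them single-end, mapped them with Bowtie2 against a sheep reference genome, and named known and predicted miRNAs. The methods name this reference without an assembly name that settles the build; the predictor and miRBase version were not found in the sources read. The series title names jejunum and ileum and the labels another library kit; the sample labels of rumen were followed. The deposited values are RPM made by the authors (column named TPM, not divided by length, summing to 1000000). All values above 0 (100%) were whole multiples, within 0.001 reads, of the smallest, which gave back the reads, on which edgeR called 1 miRNA.

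log2(RPM + 1) was compared with limma 3.58.1 (trend, not robust; R 4.3.3), without covariates, on 567 miRNAs kept by edgeR 4.0.16 filterByExpr (minimum count 10, total 15), with Benjamini-Hochberg adjustment over the 567 and a threshold of 0.05. TMM-scaled RPM, other scalings, edgeR and DESeq2 1.42.0 were alternatives. Library pairs of a group were no duplicates (chi-square per degree of freedom of at least 516). The fits were tested on simulated reads. Sequences came from the study's supplementary sequence list. Members and lists were chosen with earlier results of these data known, and no p was adjusted over a list. Named were the members, all list entries that the text turns on, and per member the 5 most and 3 least alike miRNAs; novel_miR_783 and single values of some list entries are left to the plot of fold changes.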

Additional observations from a re-analysis of the deposited data

How the results depend on the processing

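Neither member passed an adjusted p of 0.05 under any of the 15 alternatives, and none gave either a log2 fold change above 0. For oar-miR-16b the change was 0.00 with quantile normalization (adjusted p = 1.0 from limma). Leaving out 1 library gave -0.24 to -0.16 for oar-miR-16b and -0.79 to -0.46 for novel_miR_96 (-0.79 without UN replicate 1, -0.46 without UN replicate 3). Of the 165 values of the 11 family and near entries, 158 kept their direction. The other 7 all belong to novel_miR_442, at 0.11 with TMM-scaled RPM, 0.00 with RPM over the reads other than oar-miR-143, 0.03 with quantile normalization, 0.14 with edgeR and with DESeq2, 0.05 without CON replicate 2 and 0.16 without UN replicate 3 (-0.18 to 0.16 over the libraries left out). The 2 seed entries whose groups did not overlap became 0 with TMM-scaled RPM, an alternative chosen after seeing the data. Without the reads of oar-miR-143 the family's mean share was 0.628% in CON and 0.569% in UN, and this difference was not tested. Leaving out 1 library moved the ratio of novel_miR_96 to oar-miR-16b from -0.44 to between -0.66 and -0.27. Over all miRNAs, 0 up at the adjusted threshold became 1 with TMM, quantile, no oar-miR-143 and edgeR, 2 with DESeq2, and 0 to 2 without 1 library, and 0 down became 0 to 1 (1 without CON replicate 2 or 3). At the study's thresholds (p under 0.05, fold over 1.5 or under 0.67), 2 up became 4 with a pseudocount of 0.1, 4 with TMM, 10 with edgeR, 17 with DESeq2 and 1 to 16 without 1 library (16 without CON replicate 2); 8 down became 21 with a pseudocount of 0.1, 3 with one of 5, 2 with TMM, 2 with quantile and 8 to 27 without 1 library (27 without CON replicate 3). The cause was not tested. With the replicate block the members had adjusted p of 0.74 to 0.84 and the count up was 5; same-numbered libraries share only a number, with correlations of their deviations of -0.07, 0.07 and 0.19. Depth bears on novel_miR_96 where the counting intervals of CON replicate 1 and UN replicate 1 overlap.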
